A study of Mus musculus with 15 samples.

Results

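The comparison is of Sirt3 knockout with wildtype skeletal muscle when both genotypes were fed a calorie restricted (CR) diet. It rests on 4 knockout CR and 4 wildtype CR arrays, 8 of the 15 arrays of the series, chosen by the genotype and diet in the labels. Each array measured gastrocnemius, a mainly fast-fibred muscle of the calf, from 1 male C57BL/6 mouse at 12 months of age. The remaining arrays, 4 from Sirt3 knockout and 3 from wildtype mice on the control diet, share no mouse with these 8 and serve here as context. The labels name no Cre driver, promoter or tissue for the knockout, do not say how the allele was made, and do not state the degree or length of restriction. Values are deposited log2 intensities, and a difference is always knockout minus wildtype on that scale, so that -1 means an intensity lower by a factor of 2. Of 19938 genes with 1 symbol, 12056 were bright enough to be tested and 7882 were not.

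SIRT3 is an NAD-dependent deacetylase of the mitochondrial matrix that removes acetyl groups from enzymes of fatty acid oxidation, the TCA cycle and the respiratory chain, and its activity is known to respond to fasting and restriction. Muscle keeps its contractile proteins folded with small heat shock proteins and with the HSP70, HSP40 and HSP90 chaperones, whose genes are driven by heat shock factor through heat shock elements. The Z-disc, which anchors actin and titin, carries proteins such as ANKRD1, CSRP3 and filamin C whose genes are known to respond to stretch and load.

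The 8 CR arrays had closely similar distributions, with medians over all probe sets from 5.41 to 5.48. The mean of 11 genes of skeletal muscle identity lay between 12.09 and 12.38 on the wildtype CR arrays and between 12.19 and 12.30 on the knockout CR arrays. Liver markers stood apart on 1 array of the comparison: the mean of 18 markers was 8.84 on wildtype CR replicate 4 and 5.99 to 6.16 on the other wildtype CR arrays, against a median of 6.22 on the knockout CR arrays, of which 1 was higher, at about 7. Of these markers 17 of 18 thus had a difference below 0 (median -0.36), and none was at an unadjusted p under 0.05. Among the control diet arrays, male germ cell markers stood out on wildtype replicate 3 (9.94) and knockout replicate 1 (9.36), and exocrine pancreas markers on wildtype replicate 2 (12.43). Germ cell markers were raised by less on replicate 3 of both CR groups, at 6.52 in wildtype and 6.29 in knockout muscle. The other CR arrays lay between 5.34 and 5.82. Liver markers were also raised on control diet arrays, at 7.78 on wildtype replicate 1 and 7.96 on knockout replicate 2, against 5.74 to 6.96 on the other 5. Main results are also given without 4 arrays, wildtype CR replicate 4, wildtype control replicates 2 and 3 and knockout control replicate 1. That fit is not free of other tissue, since both control arrays with raised liver markers and replicate 3 of both CR groups remain. It also assumes that wildtype control replicate 1, alone in its group, varies like the others. Because whole muscle was measured, fewer cells of a type and less RNA per cell cannot be told apart.

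The targeted gene followed the labels. Sirt3 lay at 6.43, 6.53, 6.51 and 6.38 on the wildtype CR arrays and at 4.94, 6.05, 5.50 and 5.41 on the knockout CR arrays. The groups did not overlap, but the knockout arrays spread widely and replicate 2 came near the wildtype range. The difference was -0.99 (SE 0.25), with an exact two-sided permutation p of 0.0286 over 70 splits, the smallest that 4 against 4 arrays allow. In limma the unadjusted p was 0.00126 and the adjusted p 0.605. Knockout arrays on the control diet differed by -0.93 (SE 0.27), with an exact two-sided permutation p of 0.0857 over 35 splits. The sources used here do not say whether its probes fall inside the deletion. The other 6 sirtuin genes had differences from -0.08 (Sirt7) to 0.11 (Sirt4) on CR, each at an unadjusted p above 0.19.

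Across the 12056 genes, limma called 2 lower in knockout CR muscle (0.0166%) and 0 higher (0%) at an adjusted p under 0.05. Both are genes of the muscle stress response: Hspb1 and Ankrd1. At an unadjusted p under 0.05 there were 403 genes lower (3.34%) and 311 higher (2.58%), and these shares are the background for the list counts below. Of all 12056 genes, 6427 had a difference below 0 and 5629 above 0. These are the background for counts of list members on either side of 0. The split of the unadjusted calls moved with scaling, to 546 lower and 174 higher with each array centred on its median and to 304 and 334 with quantile normalization. It also moved with single arrays: 254 lower and 206 higher without wildtype CR replicate 2, 414 and 199 without wildtype CR replicate 4, and 263 and 205 without knockout CR replicate 3. The 4 knockout arrays lay wholly below the 4 wildtype arrays for 333 genes (2.76%) and wholly above for 222 (1.84%). For 83 genes (0.688%) they lay below all the other 11 arrays of the series, and for 49 (0.406%) above them.

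**Figure D1:**
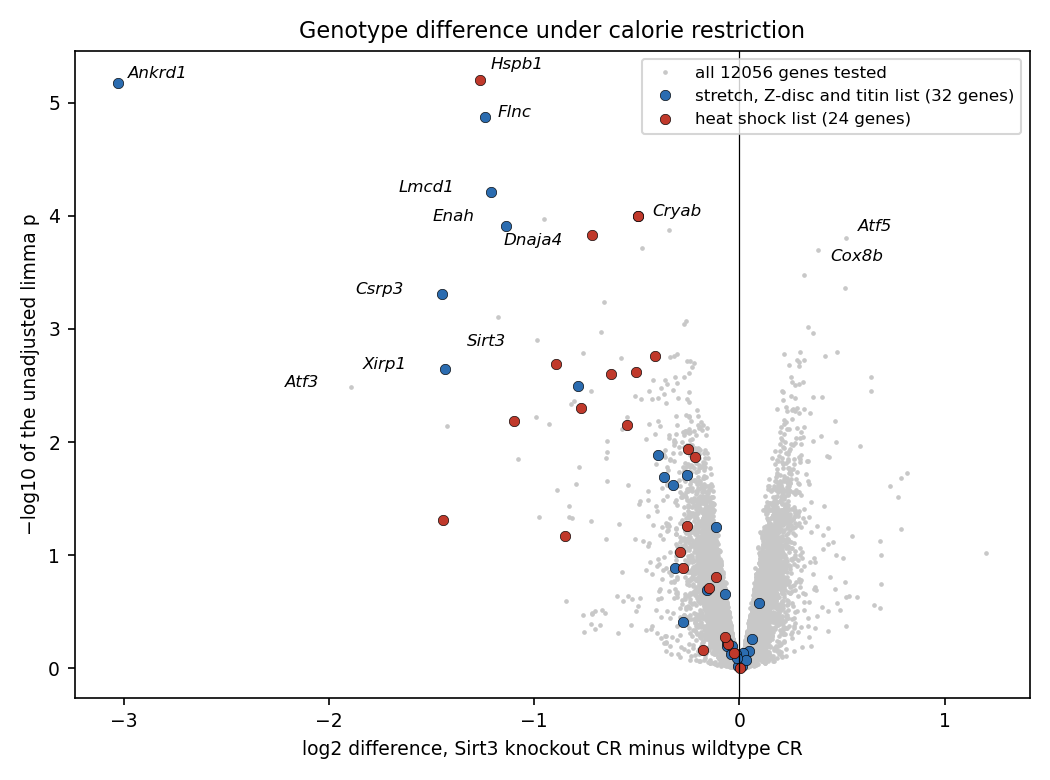
Each point is 1 of the 12056 genes tested; the x axis is the log2 difference, knockout CR minus wildtype CR, and the y axis is -log10 of the unadjusted limma p. Heat shock genes (red, 24) and stretch, Z-disc and titin genes (blue, 32; Cryab is in both lists) reach far to the left, where Ankrd1 at -3.03 and Hspb1 at -1.26 passed the adjusted test, and no gene on the right passed.

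Ankrd1 encodes a titin-binding ankyrin repeat protein of the I-band that is also found in the nucleus. It lay at 9.61, 9.22, 9.41 and 10.42 on the wildtype CR arrays and at 6.73, 5.84, 7.75 and 6.23 on the knockout CR arrays. On the control diet it lay at 8.70, 10.33 and 10.54 in wildtype and at 10.24, 10.07, 9.61 and 9.46 in knockout muscle. The highest knockout CR array thus stayed below the lowest array of every other group, while the other 3 groups overlapped fully. The mean fell from 9.66 ± 0.53 (SD, n = 4) to 6.64 ± 0.83 (SD, n = 4), a difference of -3.03 (SE 0.44, limma adjusted p = 0.0406), or 8.16-fold lower intensity.

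Hspb1 encodes HSP27, a small heat shock protein that binds unfolding proteins and stabilises actin filaments. It lay at 11.61, 11.66, 11.50 and 11.70 on the wildtype CR arrays and at 10.43, 10.05, 10.64 and 10.30 on the knockout CR arrays. Control diet arrays read 11.33, 12.03 and 12.33 in wildtype and 12.02, 11.85, 11.93 and 11.52 in knockout muscle. Again the knockout CR arrays were below each of the other 11. The mean fell from 11.62 ± 0.09 (SD, n = 4) to 10.36 ± 0.25 (SD, n = 4), a difference of -1.26 (SE 0.18, limma adjusted p = 0.0406), or 2.40-fold lower intensity.

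The size of both differences was steady, but the adjusted calls were not. Leaving out 1 array at a time kept Ankrd1 between -3.40 and -2.76 and Hspb1 between -1.36 and -1.16. The calls of both were kept without wildtype control replicate 1 or 3, knockout control replicate 1 or knockout CR replicate 3. The limma adjusted p of both was between 0.0646 and 0.0853 without wildtype control replicate 2 or knockout control replicate 2, 3 or 4. It was between 0.0865 and 0.218 without any wildtype CR array, the highest being without replicate 4, and between 0.132 and 0.188 without knockout CR replicate 1, 2 or 4. Without the 4 arrays named above 13 genes were called lower, Ankrd1 (-2.78, limma adjusted p = 0.0180) and Hspb1 (-1.24, limma adjusted p = 0.00810) among them.

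**Figure D2:**
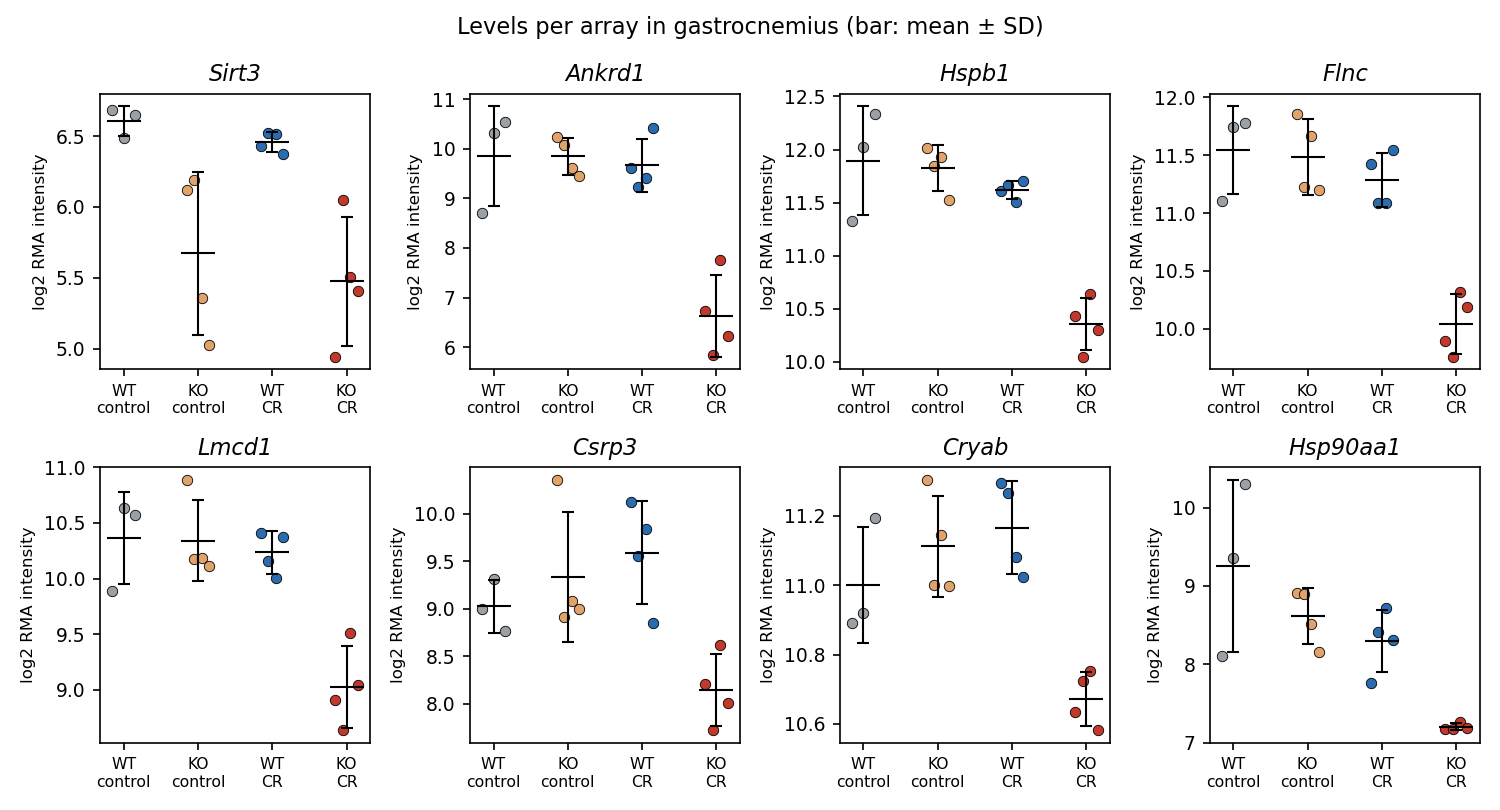
Points are single arrays (1 mouse each) on the log2 RMA intensity scale for wildtype (WT) and knockout (KO) muscle on the control diet and on CR, and bars are mean and SD; each panel has its own axis. For the 7 genes other than Sirt3 the 4 knockout CR arrays (red) lie below all the others, whereas Sirt3 is low in knockout muscle on both diets.

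Further Z-disc and actin genes had large differences without passing the adjusted test. Flnc, the gene of filamin C, an actin crosslinker at the Z-disc, lay at 11.42, 11.08, 11.09 and 11.54 in wildtype CR and at 9.90, 9.76, 10.32 and 10.19 in knockout CR muscle, a difference of -1.24 (SE 0.19, limma adjusted p = 0.0538). Lmcd1, a LIM domain cofactor, had a mean of 10.23 ± 0.19 (SD, n = 4) against 9.03 ± 0.37 (SD, n = 4) (difference -1.21, SE 0.22, limma adjusted p = 0.187). Enah, an actin regulator of the Ena/VASP family, lay at 8.32, 8.13, 8.81 and 9.01 against 7.38, 7.18, 7.83 and 7.34 (difference -1.14, SE 0.22, limma adjusted p = 0.188). In each case the knockout CR arrays were below all the other 11 arrays. Csrp3, the muscle LIM protein, had a difference of -1.45 (SE 0.32, limma adjusted p = 0.395), from 10.12, 9.55, 9.84 and 8.85 to 8.21, 7.72, 8.62 and 8.01. Its wildtype mean was 9.59 ± 0.54 (SD, n = 4) on CR and 9.02 ± 0.28 (SD, n = 3) on the control diet.

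The whole list of 32 stretch, Z-disc and titin genes was split between members that were far lower and members near 0. Of the 32, 1 passed the adjusted test (Ankrd1), 12 were lower and 0 higher at an unadjusted p under 0.05, and 7 lay below all the other 11 arrays. The median was -0.09, against -0.01 over all genes, and 20 members had no such p. The lower members outside the genes above were Xirp1 (-1.44), Ankrd2 (-0.79), Cryab (-0.49), Fhl1 (-0.40), Xirp2 (-0.37), Cavin4 (-0.33) and Nrap (-0.26). Xirp1, an actin-binding repair protein, overlapped between the groups: the wildtype CR arrays read 9.60, 9.68, 10.64 and 11.28 and the knockout CR arrays 8.32, 8.38, 9.67 and 9.10. Structural parts of the same Z-disc were close to 0, with Ttn (titin) at -0.01, Actn2 (alpha-actinin) at -0.06, Tcap (telethonin) at -0.04, Ldb3 at -0.07 and Myoz1 at 0.02. The count of lower members was 15 without the 4 arrays named above and 13 without wildtype CR replicate 4 alone, and the median was -0.16 in both cases. The mean of the list lay between 9.92 and 10.13 on the knockout CR arrays and between 10.35 and 10.50 on the other 11.

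Heat shock genes formed the other large group. Of 24 tested, 23 had a difference below 0, 13 were lower and 0 higher at an unadjusted p under 0.05, 16 did not overlap between the genotypes and 12 lay below all the other 11 arrays. The median difference was -0.35, against -0.01 over all genes, and 1 member, Hspb1, passed the adjusted test. Without the 4 arrays 17 were lower, with a median of -0.37, and without wildtype CR replicate 4 alone 13 were lower. Per array the mean of the list was 8.67, 8.74, 8.95 and 8.87 in wildtype CR and 8.39, 8.26, 8.34 and 8.32 in knockout CR muscle. On the control diet the list mean lay between 8.73 and 9.56 in wildtype and between 8.80 and 9.12 in knockout muscle, so only the knockout CR group was clear of the rest. The wildtype control arrays were spread evenly, at 8.73, 9.16 and 9.56. The highest was replicate 3, which carried germ cell transcripts, and the lowest replicate 1, with raised liver markers. The part of these transcripts in the list means was not tested.

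The small heat shock proteins, which hold unfolding proteins without using ATP, were lower in part. Besides Hspb1, Hspb8 (a partner of BAG3 in chaperone-assisted autophagy) lay at 10.96, 10.87, 10.48 and 11.07 in wildtype CR and at 10.28, 9.96, 9.78 and 9.80 in knockout CR muscle, a difference of -0.89 (SE 0.24). Hspb7 had a difference of -0.62 (SE 0.17) and Cryab, alpha-B-crystallin, of -0.49 (SE 0.09, limma adjusted p = 0.188). Hspb3 (-0.29), Hspb2 (-0.26) and Hspb6 (-0.11) were closer to 0 and at an unadjusted p above 0.05.

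Among the HSP40 cochaperones, which hand clients to HSP70, Dnaja4 lay at 8.37, 8.03, 8.47 and 8.26 in wildtype CR and at 7.48, 7.45, 7.72 and 7.61 in knockout CR muscle (difference -0.72, SE 0.14, limma adjusted p = 0.188). Dnaja1 (-0.77) and Dnajb4 (-0.55) were also apart, whereas Dnajb1 (-0.85, SE 0.43) varied more among wildtype mice and had an unadjusted limma p of 0.0675. Hsp90aa1, the inducible cytosolic HSP90, lay at 7.77, 8.41, 8.72 and 8.30 in wildtype CR and between 7.17 and 7.27 on all 4 knockout CR arrays, a difference of -1.10 (SE 0.34). Its unadjusted limma p was 0.00648 and its adjusted p 0.698. The HSP110 nucleotide exchange factor Hsph1 (-0.51), the HSP90 cochaperones Chordc1 (-0.41) and Stip1 (-0.25) and Hspa4 (-0.21) were lower by less.

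Inducible HSP70, Hspa1a, varied by more than any other member named here. It lay at 7.25, 7.82, 9.56 and 9.34 in wildtype CR and at 7.17, 6.62, 7.53 and 6.87 in knockout CR muscle, so the groups overlapped. The difference was -1.45 (SE 0.67, limma adjusted p = 0.840), and the control diet arrays spread as widely, from 8.97 to 10.94 in wildtype and from 6.82 to 10.04 in knockout muscle. Of other HSP70 genes, Hspa8, the cognate HSP70, stood at -0.15 (SE 0.11) and Hspa2 at 0.00, while Hspa4, given above, was lower by more. The HSPB8 partner Bag3 stood at -0.27 (SE 0.17).

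The promoters of these genes were read for the short core of a heat shock element. The core searched was GAANNTTC or TTCNNGAA on both strands of the RefSeq windows of build GRCm38.p6, from 250 bases before to 50 after each start. The windows of 3 lower members with more than 1 core are shown 5′ to 3′ on the gene's strand, with every core in capitals, where overlapping cores run together. They are Hspb1 (chr5:135887669-135887968, plus strand, 2 cores), the first of the windows of Hsph1 (chr5:149636287-149636586, minus strand, 3 cores) and Chordc1 (chr9:18292017-18292316, plus strand, 5 cores). Dnaja4, also lower, held 2 and is not shown.
Hspb1: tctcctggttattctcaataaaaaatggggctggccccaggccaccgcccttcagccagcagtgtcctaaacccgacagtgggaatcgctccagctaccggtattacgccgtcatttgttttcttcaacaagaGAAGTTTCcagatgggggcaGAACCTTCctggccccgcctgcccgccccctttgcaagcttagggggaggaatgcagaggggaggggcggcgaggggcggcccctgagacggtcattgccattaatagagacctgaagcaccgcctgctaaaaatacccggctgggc
Hsph1: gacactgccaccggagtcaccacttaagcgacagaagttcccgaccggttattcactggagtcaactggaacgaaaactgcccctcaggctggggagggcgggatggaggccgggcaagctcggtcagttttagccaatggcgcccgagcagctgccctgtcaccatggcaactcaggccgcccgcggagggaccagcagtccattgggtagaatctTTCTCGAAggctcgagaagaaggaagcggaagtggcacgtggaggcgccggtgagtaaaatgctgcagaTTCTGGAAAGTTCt
Chordc1: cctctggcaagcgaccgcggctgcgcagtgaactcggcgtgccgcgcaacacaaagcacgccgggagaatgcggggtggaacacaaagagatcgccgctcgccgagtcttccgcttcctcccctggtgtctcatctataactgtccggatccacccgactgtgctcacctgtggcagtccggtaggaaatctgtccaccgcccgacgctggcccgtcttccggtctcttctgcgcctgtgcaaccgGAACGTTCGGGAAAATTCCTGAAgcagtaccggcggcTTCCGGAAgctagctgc
In Chordc1 and Hsph1 the cores sit close to the start, and in Hspb1 the first begins at position -117 from it. Of the 20 tested members of the heat shock list with a window, 11 held a core (55%), and of the 11 lower members with a window 8 did (72.7%). The core occurred in 13.8% of the 9624 tested genes with a window and in 16.97% of all 27025 genes in the table. Lower members with a window and no such core in it are also present, Hspb7 among them. A match describes the letters of these windows and no binding was measured.

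Ankrd1 was searched for the MCAT element, CATTCC, a site of TEAD factors in muscle genes, and its window (chr19:36119795-36120094, minus strand, GRCm38.p6) held 2, shown in capitals on either strand.
Ankrd1: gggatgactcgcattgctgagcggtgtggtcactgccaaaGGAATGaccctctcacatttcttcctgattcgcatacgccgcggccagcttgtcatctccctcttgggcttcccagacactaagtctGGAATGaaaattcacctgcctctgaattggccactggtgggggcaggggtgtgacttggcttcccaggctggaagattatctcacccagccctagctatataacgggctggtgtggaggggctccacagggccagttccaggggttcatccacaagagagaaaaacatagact
The same window held 1 heat shock core. MCAT letters were found in 6 of the 24 stretch list windows (25%), in 2 of the 10 windows of its lower members (20%) and in 14.6% of the tested genes. Heat shock cores were in 3 of those 10 windows (30%), those of Ankrd1, Csrp3 and Fhl1. The other motifs searched were an E-box (CAGCTG, 18.99% of tested genes), a TATA element (TATAAA, 9.24%), a glucocorticoid receptor monomer site (AGAACA, 14.7%), a nuclear receptor monomer site (AGGTCA, 15.6%), an estrogen related receptor site (TCAAGGTCA, 0.322%) and a D-box (TTATGTAA, 0.623%). In the 11 windows of lower heat shock genes their counts were 1, 1, 2, 3, 0 and 0 in that order.

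Other chaperone and degradation systems differed less. Of 39 proteasome genes 4 were lower and 0 higher at an unadjusted p under 0.05 (median -0.06): Psmd5 (-0.36), Psmd11 (-0.26), Psme3 (-0.24) and Psmd3 (-0.16). The same list had 9 members higher in knockout muscle on the control diet, where 5.08% of all genes were. Of 24 genes of endoplasmic reticulum folding 21 had a difference below 0, against 6427 of all 12056 genes. At such a p 2 were lower, Mlec (-0.28) and Hsp90b1 (-0.26). The list median was -0.12 on CR and also -0.12 on the control diet. Its mean per array lay at 7.62 to 7.73 in wildtype CR and 7.54 to 7.62 in knockout CR muscle. Among 22 mitochondrial stress genes the matrix cochaperonin Hspe1 had a difference of -0.55 (SE 0.17, limma adjusted p = 0.698), from 9.41, 9.44, 9.18 and 8.86 to 8.78, 8.54, 8.67 and 8.71, below all the other 11 arrays. Its partner Hspd1 stood at -0.11 (SE 0.09) with overlapping groups. Of 28 FOXO and ubiquitin ligase genes none had such a p in either direction (median -0.01).

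Stress genes outside the chaperones were mixed. Atf3, a transcription factor induced by many stresses, had a difference of -1.89 (SE 0.54, limma adjusted p = 0.626) with overlap, at 8.09, 8.58, 9.54 and 10.03 in wildtype CR and 6.69, 6.28, 8.20 and 7.49 in knockout CR muscle. It alone of 23 immediate early genes was at an unadjusted p under 0.05, and the median of that list was 0.03; Fos (0.17), Egr1 (-0.11) and Junb (0.06) were near 0. Of 28 antioxidant genes 2 were lower, the sulfiredoxin gene Srxn1 (-1.08, SE 0.39) and Gclm (-0.22, SE 0.10), and both overlapped. Sod2 (0.09), Cat (0.04) and Prdx3 (0.07) were near 0.

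The remaining genes named for low values were of several kinds. The uncharacterised 2310002L09Rik lay at 8.80, 8.55, 7.87 and 8.32 in wildtype CR and at 7.60, 7.56, 6.98 and 7.60 in knockout CR muscle (difference -0.95, SE 0.18, limma adjusted p = 0.188). Rnf115, a ubiquitin ligase (-0.66, SE 0.15), and Otulin, a linear deubiquitinase (-0.48, SE 0.10), also lay below all the other 11 arrays. Cd28, a T cell costimulator, was dim, at 5.77 to 5.92 against 5.48 to 5.54 (difference -0.34, SE 0.07), and its difference on the control diet was -0.16. Smox, which oxidises spermine, had a difference of -0.80 (SE 0.24) and alone of 9 polyamine genes was at an unadjusted p under 0.05. The imprinted Peg10 (-0.89, SE 0.36) and the macrophage lysosomal gene Cd68 (-0.83, SE 0.38) did not overlap between the genotypes, while the other 15 macrophage and leukocyte markers lay between -0.12 and 0.15.

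On the higher side no gene passed the adjusted test, and differences were smaller. Atf5, a transcription factor of the mitochondrial unfolded protein response, lay at 6.95, 6.81, 6.91 and 6.67 in wildtype CR and at 7.58, 7.12, 7.25 and 7.45 in knockout CR muscle (difference 0.52, SE 0.10, limma adjusted p = 0.188). Its control diet difference was 0.31 (SE 0.11). Trib3, a pseudokinase of the same stress pathway, stood at 0.26 (SE 0.12) without overlap. Of the rest of that list, Atf4 (0.07), Ddit3 (-0.11), Lonp1 (-0.03) and Clpp (-0.08) overlapped between the genotypes.

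Cox18, an insertase that assembles cytochrome c oxidase, lay at 8.04, 8.37, 8.22 and 7.94 in wildtype CR and at 8.77, 8.71, 8.70 and 8.45 in knockout CR muscle (difference 0.51, SE 0.11, limma adjusted p = 0.376). It stood at -0.19 (SE 0.12) on the control diet, the opposite side of 0. Pigp, of the glycosylphosphatidylinositol anchor pathway, read 9.88 to 10.08 on the knockout CR arrays and above all the other 11 arrays (difference 0.48, SE 0.12). Gadd45g, a stress-inducible growth arrest gene, had a difference of 0.77 (SE 0.32) on CR and 0.85 (SE 0.35) on the control diet. Neu3, Sall1, Foxl2os, Efna4, Fthl17a and 4931440P22Rik completed the higher genes named, with differences from 0.22 to 0.36 at levels between 5.11 and 6.78.

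A microRNA gene was among the higher genes. Mir409, of the imprinted Dlk1-Dio3 cluster, lay at 5.23, 5.30, 5.41 and 5.30 in wildtype CR and at 5.55, 5.67, 5.60 and 5.67 in knockout CR muscle (difference 0.31, SE 0.07, limma adjusted p = 0.309), above all the other 11 arrays. These values are close to the filter value of 5.32, and the array does not separate the mature arms. The RefSeq mature arms are shown because the hairpin gives 2 products with unrelated seeds, which are in capitals (bases 2 to 8).
mmu-miR-409-5p: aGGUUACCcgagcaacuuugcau
mmu-miR-409-3p: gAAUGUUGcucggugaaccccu
Of the longer imprinted transcripts of the cluster, Meg3 stood at -0.06, Dlk1 at 0.13 and Rtl1 at 0.18, each with overlapping groups. Mir540, another microRNA gene of the cluster and named after its values were seen, stood at 0.29 (SE 0.13, limma adjusted p = 0.839) on CR and 0.39 (SE 0.14, limma adjusted p = 0.612) on the control diet, with overlap on both.

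Genes whose protein products SIRT3 acts on showed small differences. Of 29 substrate genes tested 0 were lower and 0 higher at an unadjusted p under 0.05, with a median of 0.07; Sod2 stood at 0.09, Idh2 at 0.21 and Glud1 at -0.20. Transcript levels do not report acetylation. Complex I genes had a median of 0.06, with 29 of 35 above 0 and 2 higher, Ndufa3 (0.29, SE 0.08) and Ndufa13 (0.13, SE 0.05). Complexes II to V also had a median of 0.06, with 34 of 39 above 0 and 2 higher, Cox8b (0.38) and Cox6a2 (0.14). Over all genes tested, 5629 of 12056 were above 0. Per array the means of these lists overlapped between the genotypes, at 9.38 to 9.53 in wildtype CR and 9.45 to 9.58 in knockout CR muscle for complex I. Their control diet medians were 0.11 and 0.12, with 4 and 7 members higher.

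Fuel pathways were similar in size. Fatty acid uptake and oxidation genes had a median of 0.12 with 25 of 30 above 0, from -0.06 (Cpt1a, the mitochondrial entry enzyme of liver type) to 0.36 (Fabp4), and 0 were at an unadjusted p under 0.05. Adipocyte markers stood beside this, 12 of 13 above 0 with a median of 0.28, and Fabp4 is in both lists. Their mean per array lay at 7.76 to 8.74 in wildtype CR and 8.02 to 8.86 in knockout CR muscle, with Adipoq at 0.49 and Retn at 0.69, and their part in the fatty acid list was not tested. TCA cycle genes (26, median 0.04), fasting and PPAR targets (17, 0.06) and glycolysis and glycogen genes (31, -0.01) had 0 members at such a p in either direction. Lipogenesis genes, high in well-fed muscle and fat, had a median of 0.18 and 0 of 20 on CR, against 0.45 and 10 of 20 higher on the control diet. Of 25 insulin signalling genes 1 was lower, Rrad (-0.54), and 1 higher, Trib3; of 24 glucocorticoid response genes 1 was higher, Gadd45g. Of 15 NAD genes Nmnat3, a mitochondrial adenylyltransferase of NAD synthesis, was higher (0.25, SE 0.08) and Nmrk2 lower (-0.73).

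**Figure D3:**
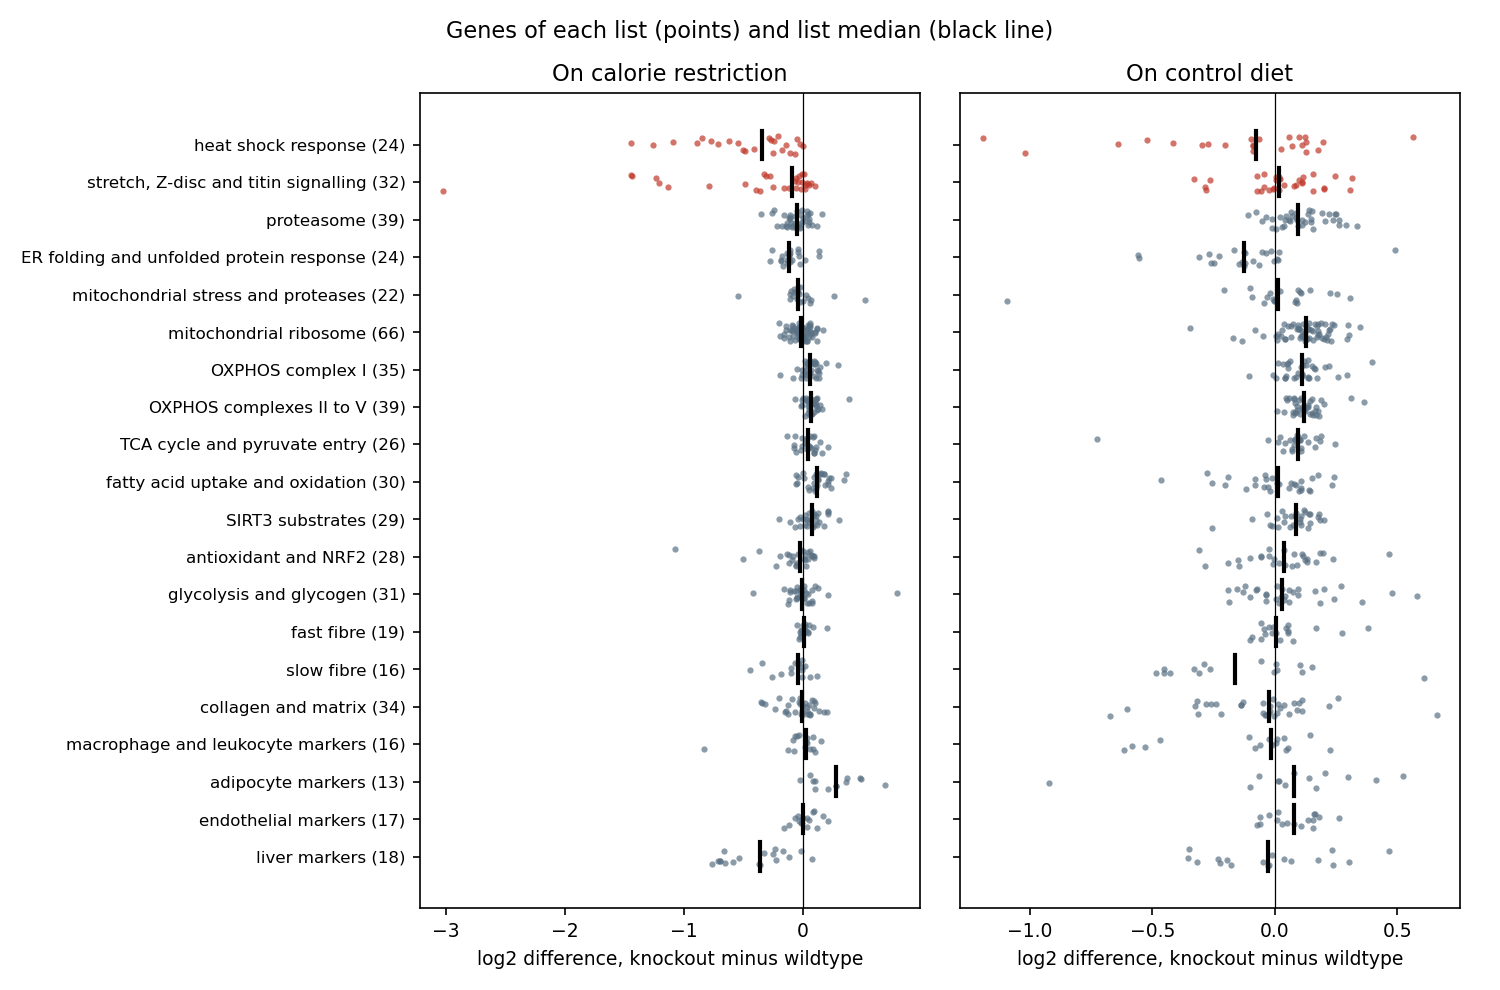
Each point is 1 gene of a list, plotted at its log2 difference between knockout and wildtype on CR (left) and on the control diet (right), with different x ranges; black lines are list medians and numbers of genes are in parentheses. On CR the heat shock list has its median at -0.35 and the stretch list has a long left tail, while the plotted OXPHOS, TCA cycle, fatty acid and glycolysis lists have medians from -0.01 to 0.12.

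Mitochondrial ribosome genes had a median of -0.02 and 0 of 66 at an unadjusted p under 0.05 on CR, against 15 higher and 1 lower on the control diet. The 19 biogenesis and dynamics genes had a median of -0.05 and 0 in either direction. Fibre type lists had medians close to 0: fast fibre genes of 0.01 (0 of 19) and slow fibre genes of -0.04 (0 of 16). Of the slow fibre genes 13 of 16 were below 0, against 6427 of all 12056 genes. Their mean varied widely in wildtype CR muscle, at 8.56, 8.69, 9.52 and 8.15 per array. In knockout CR muscle it lay between 8.36 and 8.84. A matched fibre content of the groups cannot be read from these medians. Of 25 genes of calcium handling and the triad 0 had such a p. Of 23 cardiac and developmental sarcomere genes, Ankrd1 and Mybph were lower and Chrnd, a receptor subunit of the neuromuscular junction, was higher (0.26, SE 0.10). Mybph, a thick filament protein, had a difference of -0.51 with overlapping arrays, at 10.31, 10.33, 9.96 and 10.39 in wildtype CR and 9.61, 10.05, 9.66 and 9.63 in knockout CR muscle. Actc1, cardiac actin, stood at 0.10.

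Matrix and vessel lists were near the background. Of 34 collagen and matrix genes 1 was lower, the collagen chaperone Serpinh1 (-0.32), and 1, Col5a3 (0.17, SE 0.07), higher. Tendon (19), clock (17, median -0.11) and interferon stimulated (19) genes had 0 in either direction, 12 cytokine genes had 1 higher, and 19 imprinted genes had 2 lower. Endothelial (17), smooth muscle (14) and satellite cell (9) markers had 0, with medians from -0.03 to 0.00, fibroblast markers 1 lower of 12, and Schwann cell markers 1 lower of 8, which was Cryab. The germ cell (17), exocrine pancreas (8), skin (3), lymphocyte (2), brown fat (2) and neutrophil (1) markers had 0, and red cell markers 1 higher of 2.

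The genes next to Sirt3 on chromosome 7 were described by position, since the labels do not say how the allele was made. Of the 10 tested genes on each side, 17 of 20 had a difference above 0 on CR, against 5629 of all 12056 genes. Their median was 0.09. At an unadjusted p under 0.05, 3 were higher, where 2.58% of all genes were: Ric8a, Cox8b and Ifitm1. Ric8a, a chaperone of G protein alpha subunits and its nearest tested neighbour on the left of the plotted order, lay at 5.78, 5.94, 5.75 and 5.80 in wildtype CR and at 6.49, 6.00, 6.22 and 6.42 in knockout CR muscle (difference 0.47, SE 0.15). Cox8b, the muscle isoform of a cytochrome c oxidase subunit, lies beyond Psmd13 on the other side. It read 12.15, 12.37, 12.28 and 12.26 in wildtype CR and 12.61, 12.52, 12.76 and 12.70 in knockout CR muscle (difference 0.38, SE 0.08, limma adjusted p = 0.200). Both recurred on the independent control diet arrays, Ric8a at 0.51 (SE 0.16, limma unadjusted p = 0.00634) and Cox8b at 0.36 (SE 0.08, limma unadjusted p = 0.000591), where Cox8b again did not overlap.

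**Figure D4:**
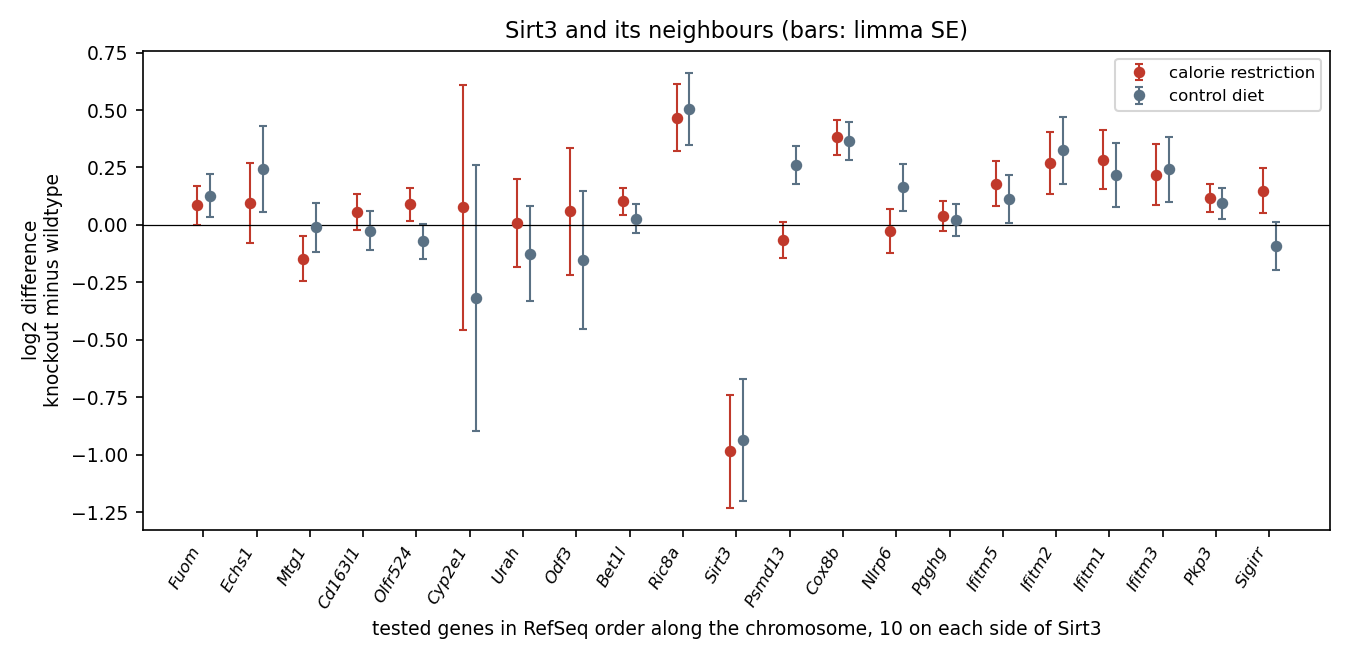
The x axis gives the 10 tested genes on each side of Sirt3 in RefSeq order, not to distance, and the y axis the log2 difference with its limma SE on CR (red) and on the control diet (grey). Sirt3 is near -1 on both diets, and Ric8a and Cox8b lie above 0 by more than their errors on both.

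Psmd13, a proteasome lid subunit, shares a promoter with Sirt3. For the first Sirt3 window the starts are 85 bases apart on opposite strands and 184 bases of the windows are common. A second Sirt3 window (chr7:140881820-140882119) does not overlap the first. The first Sirt3 window is shown (chr7:140882260-140882559, minus strand, GRCm38.p6) because the bases between these starts, in capitals, belong to both genes.
Sirt3: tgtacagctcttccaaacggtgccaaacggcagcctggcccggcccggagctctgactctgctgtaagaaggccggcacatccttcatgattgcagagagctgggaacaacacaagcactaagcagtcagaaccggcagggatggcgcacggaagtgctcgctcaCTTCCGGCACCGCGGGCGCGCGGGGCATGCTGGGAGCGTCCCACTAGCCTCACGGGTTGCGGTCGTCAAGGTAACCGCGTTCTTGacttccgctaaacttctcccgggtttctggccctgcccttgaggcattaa
Psmd13 did not differ on CR beyond its error, at 8.42, 8.43, 8.26 and 8.35 in wildtype and 8.26, 8.17, 8.24 and 8.53 in knockout muscle (difference -0.06, SE 0.08). On the control diet it stood at 0.26 (SE 0.08, limma unadjusted p = 0.00731), and the difference between the diets had an unadjusted limma p of 0.0123. Bet1l, beyond Ric8a, stood at 0.10 (SE 0.06) on CR and 0.03 on the control diet.

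The 7 control diet arrays share no mouse with the CR arrays. There limma called 0 genes at an adjusted p under 0.05, with 234 lower (1.94%) and 613 higher (5.08%) at an unadjusted p under 0.05. Of the 403 genes lower on CR, 186 (46.2%) were also below 0 on the control diet, and of the 311 higher, 220 (70.7%) were above 0. The share of all 12056 genes on the same side was 53.2%, which pools both directions. The control diet difference had a median of 0.02 over all genes, and a separate background for each direction is not given. Across genes the 2 differences had a Pearson r of 0.10, a description, since genes are not independent replicates. At an unadjusted p under 0.05 on both diets, 16 genes were lower and 26 higher on both, among them Cox8b, Sirt3, Ric8a, Atf5, Dnajb4, Gadd45g, Chrnd and Cox6a2.

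The heat shock and stretch genes named above were not among them, with the exception of Dnajb4, at -0.55 on CR and -0.52 on the control diet. On the control diet Ankrd1 stood at -0.01 (SE 0.47), Hspb1 at -0.07 (SE 0.20), Flnc at -0.06 (SE 0.21), Lmcd1 at -0.02 (SE 0.23) and Csrp3 at 0.31 (SE 0.35). The heat shock list had a median of -0.08 there, with 2 lower and 1 higher. Hspb7 was on opposite sides of 0, at -0.62 on CR and 0.56 (SE 0.18) on the control diet.

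Whether the genotype difference itself depended on diet was tested as an interaction, and 0 genes passed in limma. At an unadjusted p under 0.05, 529 genes (4.39%) had a lower and 160 (1.33%) a higher difference on CR than on the control diet. Mybph had the smallest p (-1.51, SE 0.22, limma adjusted p = 0.0822). Its difference on CR, given above, was below 0 but smaller in size, so its difference on the control diet was above 0. Ankrd1 (-3.02, SE 0.64), Hspb1 (-1.20, SE 0.27), Cryab (-0.60, SE 0.14) and Hspb7 (-1.19, SE 0.25) each had a limma adjusted p of 0.641. Of the lists, 8 of 24 heat shock and 11 of 32 stretch genes were lower in the interaction at an unadjusted p under 0.05, and 0 and 1 were higher. A difference on CR that exceeds that on the control diet was therefore not established for any single gene by the adjusted test.

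**Figure D5:**
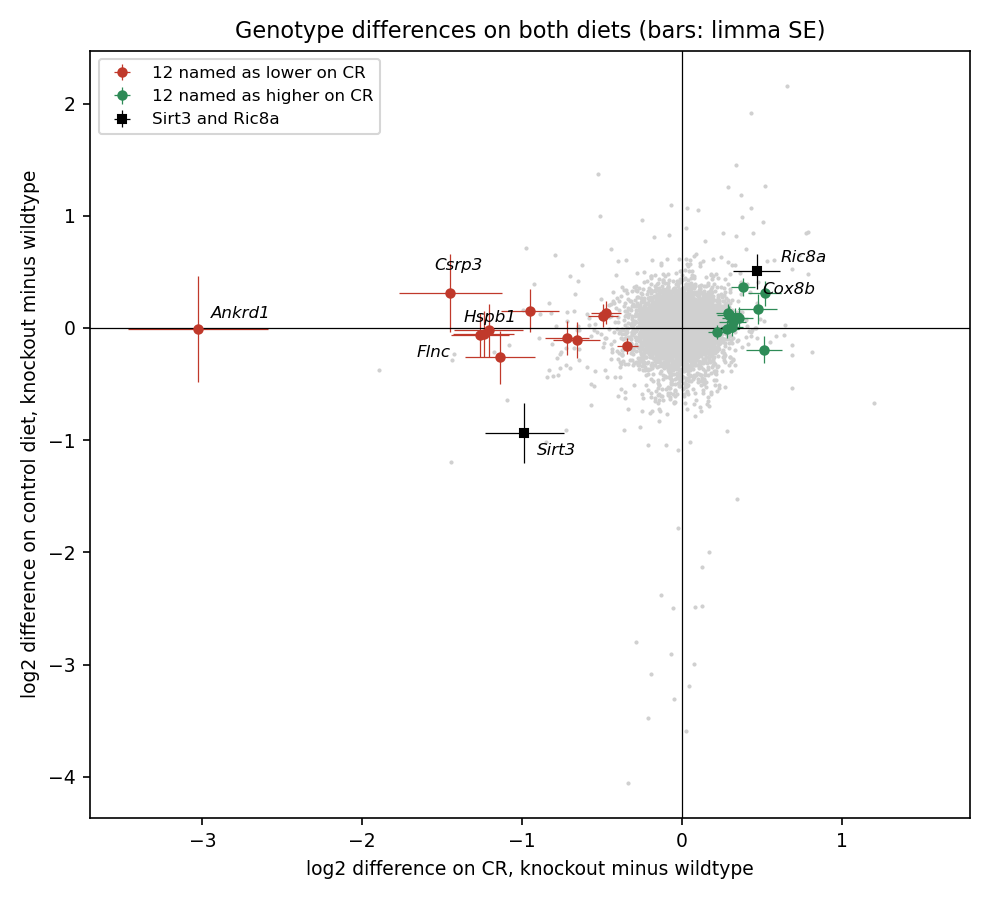
Each grey point is a gene tested, at its log2 genotype difference on CR (x) and on the control diet (y); red and green points are the 12 genes named as lower and the 12 named as higher on CR and black squares are Sirt3 and Ric8a, with limma SEs. Ankrd1, Hspb1, Flnc and Csrp3 lie far left with control diet differences between -0.07 and 0.31, while Sirt3, Cox8b and Ric8a lie on the same side of 0 on both diets.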

How the data were processed

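Gastrocnemius RNA (1 mouse per array) was read on Affymetrix arrays as biotin cRNA, per the labels. The deposited values are log2 intensities made with RMA, per the submitters' processing notes. The sources used here give no version, scan day or hybridisation day, and batches were not tested. RMA gives the probe intensities of all arrays one distribution before they are summarised, so a shift shared by most genes would largely be hidden. The medians of the probe set values still differed, from 5.40 to 5.48. The number of arrays limits the precision.

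Gene names came from the array annotation: of 35556 probe sets, 21789 had 1 symbol, 1621 several and 12146 are unnamed here. A gene took its probe set with the highest mean, and genes below the 40th percentile of listed probe sets (5.32) were left out. All 15 arrays were fitted in limma 3.58.1 (R 4.3.3), 1 mean per group, with 3 contrasts (genotype on CR, genotype on the control diet, their difference), two-sided, with Benjamini-Hochberg adjustment over 12056 genes and a threshold of 0.05. Errors beside differences are moderated SEs. The fit was tested on simulated data. Figures used Python 3.11.15 and matplotlib 3.10.9.

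The comparison, the 47 gene lists (1102 entries, 1022 matched, 934 tested) and the genes to name were chosen with earlier results of these data known. The immediate early and skeletal muscle identity lists were added after the CR contrast was seen. Named genes were Sirt3, 12 per direction without overlap of the 4 against 4 arrays (those past the adjusted test first, then by p), up to 4 members per list by p among those without overlap, and the 2 nearest tested genes on each side of Sirt3; other list members appear as examples. Alternatives were the filter, the probe set rule, 2 scalings, array weights, a trended robust prior, only the 8 CR arrays, the replicate number as a block, leaving out the 4 arrays named in the report for another tissue's transcripts and leaving out each CR array. Leaving out each control diet array and testing every probe set singly were added after the data were seen. Promoter and miRNA sequences are RefSeq's (GRCm38.p6).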

Additional observations from a re-analysis of the deposited data

Results flagged for a closer look

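Among the 45 named genes in the 2 CR groups, 90 sets of 4 arrays were checked for 1 array far from the rest, and 1 was found. 2310002L09Rik read 6.98 on knockout CR replicate 3 and between 7.56 and 7.60 on the other 3 knockout CR arrays, so the gap was 0.936 of the range, above Dixon's critical value. About 1 in 20 such sets is found by chance. The low array lies on the side of the genotype difference, which was -0.80 without that array and -0.95 with it.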

How the results depend on the processing

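The count of genes called lower in knockout CR muscle, 2 in the reported fit, was 0 with no filter, with quantile normalization, with the trended robust prior and with every probe set tested singly. It was 2 with the mean of probe sets, 3 with the 60th percentile or centring, 5 with only the 8 CR arrays, 7 with array weights and 13 without the 4 arrays, and it ranged from 0 to 4 when 1 array was left out. With the replicate number as a block in the 8 CR arrays it was 16 lower and 2 higher. The labels do not say whether the numbers pair mice. Same-numbered deviations correlated at -0.01, 0.16, 0.50 and 0.08, the highest for replicate 3. Whether a number marks a shared batch was not tested, so a lost or gained call under the block is not read further. On the control diet, with 0 calls in the reported fit, 4 were lower without the 4 arrays, and leaving out 1 array gave 0 to 5 lower and 0 to 3 higher, the highest counts without wildtype control replicate 2. The interaction gave 1 lower with the 60th percentile, 1 lower and 3 higher without the 4 arrays, and 0 to 1 lower and 0 to 4 higher with 1 array left out, above 0 without wildtype control replicate 2 or knockout CR replicate 2. Sirt3 stayed between -1.18 and -0.81 and was not called in any of these fits. Named genes kept their direction in every setting run, with 1060 values on the same side of the threshold as reported, 26 gained and 28 lost. The median over all genes lay at -0.03 with centring and 0.01 with quantile normalization. The cause of these moves was not tested. With 3 or 4 arrays a group, genes near the filter value of 5.32, such as Mir409, Sall1 and Cd28, are the least certain.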
